A study of Homo sapiens with 16 samples.

Results

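The swing experiment of the study grew Caco-2 cells, a human colon carcinoma line, on a chip with intestinal villi that a magnet moves, and gene expression was measured by mRNA sequencing. Both groups described here received a swing. The labels name a Physiological Swing and a Pathological swing group with 4 replicates each, and the deposited tables carry the codes VOS1 and VOS2, with 4 libraries each. No source used here says which code belongs to which label, so the tables are compared by code, and a direction below is a direction of VOS1 relative to VOS2 and not of one swing regime relative to the other. The sources used here give no amplitude, frequency or duration of the swing. The 8 libraries are part of a series of 16, whose other tables are the static control (code NOS1, assigned by elimination) and the IBD induction (code IBD). Caco-2 is 1 established line, so the replicates share a genotype, and while the series design calls them biological, nothing says whether they came from separate cultures; p-values therefore measure the spread between these libraries, which may be technical.

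The tables were not counted alike, and genes were chosen for this. The gene length implied by each gene's counts and FPKM (a count divided by gene length and library depth) was shorter in VOS1 than in VOS2 for most genes, with a median ratio of 0.163 over the 15977 genes that had an implied length in both tables. Genes were kept where the VOS1 length was at least 0.5 and at most 1.1 of the VOS2 length, which left 2758 of 15977 genes, or 17.3%, out of 61228 in each table. The ratio nearest inside the limit was 0.5003 and the nearest outside 0.4995, and no gene lay above 1.1. The kept genes had a median ratio of 0.820, and 1061 of them lay within 1% of equal length. EGR1, the gene named in the series title, was kept, with an implied length of 3137 bases in VOS1 and 3825 bases in VOS2. The NOS1 and IBD tables were also counted over other features than VOS1. Their means below are given for orientation, and how far the counting set their distance from VOS1 was not tested.

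Kept genes were short and simple. They had a median of 3 separate exon blocks and a span of 3731.5 bases, against 11 blocks and 40418.5 bases for genes under the limit, and 879 of the 2552 with an annotation were made of 1 exon block. Protein-coding genes made up 58.3% of those kept and 84.2% of those left out. Immediate early genes, chemokines, histone genes, apolipoproteins and genes of the mitochondrial DNA are of this compact kind, while integrins, most brush border hydrolases and most cell cycle genes were lost. A gene also needed at least 5 counts in a library of both tables to have a length, so genes that did not reach this in one table are missing by construction. Of the 2552 annotated genes kept, the VOS1 length matched the joined exons to within 1% for 62.4%, and the VOS2 length matched the whole gene span for 72.7%. Where a gene overlaps a neighbour, the tables could therefore assign the shared reads differently, and 1264 of the kept genes overlap no other gene in GENCODE v29 or RefSeq. Named genes that do overlap one are marked as such below, and their counts are uncertain. Many genes without an overlap were also counted over shorter features in VOS1, which leaves their counts uncertain too. Among those named below the length ratio was 0.503 for CLDN19, 0.507 for PMAIP1, 0.511 for ZIC5 and 0.514 for COL1A1. It was 0.561 for CYP1A1 and 0.578 for CHAC1, and 1 for CCL2 and CLDN3. How far the counting set the differences below was not tested.

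Immediate early genes are transcribed within minutes of a growth factor, stretch or stress signal, without new protein synthesis, through ERK signalling to serum response factor (SRF) and through CREB and ATF factors. They encode transcription factors such as EGR1 and FOS, matricellular signals such as CCN1, and phosphatases such as DUSP2 that shut the pathway down again. In intestinal epithelium, mechanical strain also acts through YAP and TAZ, and microbial or cytokine signals act through NF-kB, which drives chemokine genes and its own inhibitor NFKBIA. Differentiated Caco-2 cells resemble absorptive enterocytes and express apolipoproteins, alkaline phosphatase and claudins.

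The promoters of 3 of the 8 listed immediate early genes that were lower in VOS1 are shown. They were picked because at least 1 element of these pathways can be read in each, and the other lower genes are not shown. The sequences are the 250 bases before the RefSeq start in GRCh38.p14, read 5′ to 3′ on the gene's strand: EGR1 at chr5:138465229-138465478 on the plus strand, FOS at chr14:75278578-75278827 on the plus strand and EGR4 at chr2:73293549-73293798 on the minus strand. Capitals mark each CArG box, the element SRF binds, and each TGACGT, the core of the cAMP response element, on either strand; no CArG box overlaps a TGACGT here.
EGR1: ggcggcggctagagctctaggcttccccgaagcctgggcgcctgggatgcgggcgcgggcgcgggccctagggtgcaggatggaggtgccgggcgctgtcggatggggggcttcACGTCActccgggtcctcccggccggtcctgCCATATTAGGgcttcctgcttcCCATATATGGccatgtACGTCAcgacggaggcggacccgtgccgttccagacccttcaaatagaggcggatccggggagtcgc
FOS: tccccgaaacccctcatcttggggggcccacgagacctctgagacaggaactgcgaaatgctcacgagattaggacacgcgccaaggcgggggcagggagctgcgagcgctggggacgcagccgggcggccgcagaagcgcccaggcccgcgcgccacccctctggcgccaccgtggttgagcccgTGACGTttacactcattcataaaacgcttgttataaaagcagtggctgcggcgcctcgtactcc
EGR4: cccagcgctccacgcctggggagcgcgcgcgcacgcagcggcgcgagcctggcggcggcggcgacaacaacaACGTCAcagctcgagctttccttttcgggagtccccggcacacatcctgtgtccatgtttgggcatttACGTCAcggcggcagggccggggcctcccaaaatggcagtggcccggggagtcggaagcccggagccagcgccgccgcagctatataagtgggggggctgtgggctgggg
The EGR1 window holds 2 CArG boxes and 2 TGACGT matches. The FOS window holds 1 TGACGT match and the EGR4 window 2, and each of these windows holds 0 CArG boxes. Elements that lie outside the windows are not covered. This core occurred in 7.42% of all 27305 promoter windows and in 11.3% of those of the 1392 tested genes with a window. It occurred in 22 of 82 windows (26.8%) of genes at least 2-fold lower in VOS1, and in 12 of 164 (7.32%) of those at least 2-fold higher. The CArG box occurred in 1.14% of all windows, in 0.79% of tested genes, in 2 of 82 and in 1 of 164. These motifs were picked after a wider look at the same windows, so the shares are a description of the letters in them and carry no test.

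Total counts ran from 21868713 to 28148186 in VOS1 libraries and from 15078620 to 18865457 in VOS2 libraries. Kept genes held 20.2% to 22.4% of the counts in VOS1 and 22.2% to 22.7% in VOS2. Genes with a count numbered 25199 to 26756 in VOS1 libraries and 20538 to 21171 in VOS2 libraries. In the NOS1 and IBD libraries they numbered 20226 to 21102, and the reason for the gap to VOS1 was not tested. Over the tested genes the Spearman correlation was 0.979 to 0.992 within VOS1, 0.985 to 0.990 within VOS2 and 0.925 to 0.939 between the tables. VOS1 replicate 4 stood apart from its group, with a median correlation of 0.980 with the other VOS1 libraries, which had 0.991 each; counts without it are given below. Transcripts of mitochondrial genes took 3.92% to 5.60% of the counts in VOS1 and 6.00% to 6.94% in VOS2. Of 20 Caco-2 and intestinal markers, 19 reached 1 CPM (the count scaled to the depth of its library) in both tables, CDX1 being listed at 0 in VOS1, and their sum ran from 13462 to 22615 CPM in VOS1 and from 12635 to 14337 CPM in VOS2. Fibroblast markers summed to 553 to 715 CPM in VOS1 and 358 to 450 CPM in VOS2, where 7 of 14 reached 1 CPM in each. Of these, DCN, THY1, FAP and POSTN were at 0 in VOS1 and COL1A2, THY1 and POSTN were at 0 in VOS2, while PDGFRA reached 1 CPM in VOS1 alone and VIM in VOS2 alone. Endothelial markers summed to 40.6 to 48.5 CPM in VOS1 and 34.7 to 38.9 CPM in VOS2, leukocyte markers to 41.9 to 47.5 CPM in VOS1 and 24.5 to 31.3 CPM in VOS2, and markers of other epithelia to 20.4 to 23.1 CPM in VOS1 and 24.2 to 51.5 CPM in VOS2. These sums cover full tables that were counted over different features, and their part in the results below was not tested.

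A large share of the genes that could be tested differed between the swing tables, in both directions. Of 2207 genes past the filter on low counts, 1051 were called at an adjusted p under 0.05 (47.6%), 563 higher in VOS1 (25.5%) and 488 lower (22.1%), and the median log2 fold change was 0.01. The library ranges of the tables did not overlap for 977 genes (44.3%). At least 2-fold differences were found for 265 genes higher in VOS1 (12.0%) and 144 lower (6.52%); limma on log2(FPKM + 1) gave 272 higher and 27 lower, and on log2(FPKM + 0.1) 488 higher and 71 lower. Among the 960 tested genes that overlap no other gene, 451 were called (47.0%), 212 of them higher (22.1%) and 239 lower (24.9%), with 89 (9.27%) and 84 (8.75%) at least 2-fold and 406 with ranges that did not overlap (42.3%). Among the 1152 that overlap one, 579 were called (50.3%), 344 of them higher and 235 lower, with 170 (14.8%) and 54 (4.69%) at least 2-fold and 555 with ranges that did not overlap (48.2%). Genes that overlap a neighbour thus supplied 170 of the 265 strong rises. The other 95 tested genes were found in neither annotation. Without VOS1 replicate 4, 657 genes were higher and 575 lower. The balance differed between settings: of the calls 53.6% were higher in VOS1 here, and 71.5% when both the scaling and the adjustment of p used every gene of the tables (written below as scaled over all genes), with a median log2 fold change of 0.22. Changes below are relative to the median of the kept genes. FPKM, which divide by the shorter length in VOS1, gave a median of 0.24 on the log2(FPKM + 1) scale. Counts scaled by library size alone gave a median of 0.02. Named genes whose call or direction changes on the log2(FPKM + 1) scale, or whose fold moves by over 1.5 times, have that value below. The added 1 also draws the fold changes of low genes toward 0. In bulk RNA, a change in the number of cells of a type and a change in RNA per cell cannot be told apart.

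**Figure D1:**
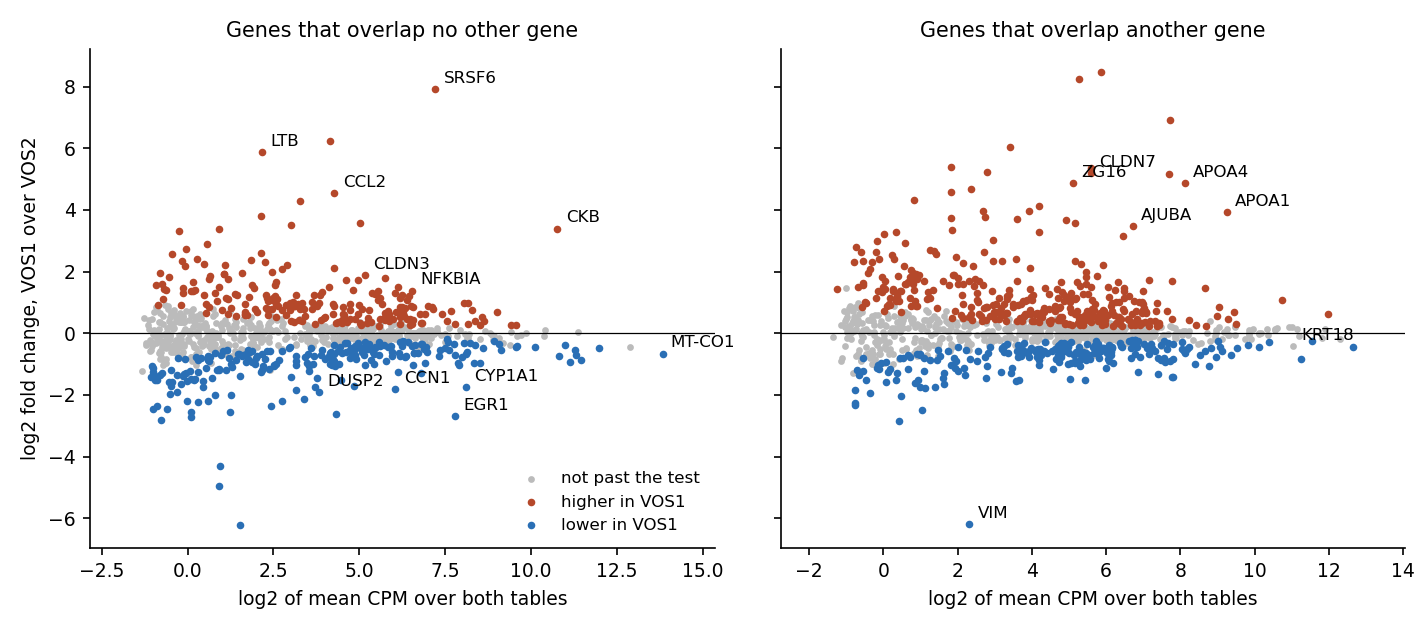
Log2 fold change of VOS1 over VOS2 (vertical) against the log2 of the mean CPM over both tables (horizontal) for the tested genes, split into 960 that overlap no other gene (left) and 1152 that overlap one (right), without the 95 found in neither annotation. Points past the test are coloured by direction; among genes without an overlap EGR1 lies among the lowest of the well expressed genes and SRSF6 is the highest point, while the right panel holds more points above 2 than below -2.

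EGR1, an immediate early zinc finger transcription factor, was among the genes with the largest fall. GENCODE v29 places it at chr5:138465490-138469315 (GRCh38, plus strand, ENSG00000120738.7), free of any overlapping gene. EGR1 was at 56.3, 99.1, 55 and 26.8 CPM in VOS1 replicates 1 to 4 and at 398, 383, 376 and 371 CPM in VOS2 replicates 1 to 4. The highest VOS1 library lay well below the lowest VOS2 library, and the VOS1 libraries spread widely, with replicate 4 the lowest, while the VOS2 libraries lay close together. The level was 6.45-fold lower in VOS1 (log2 fold change -2.69 ± 0.29, SE; adjusted p = 2.22e-05 by edgeR's quasi-likelihood test), and the log2 fold change without VOS1 replicate 4 was -2.42. For orientation, the mean was 244 CPM in the NOS1 table and 71.3 CPM in the IBD table.

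Of 31 immediate early genes listed, 17 were kept and tested; 8 were lower in VOS1 and 1 was higher, with a median log2 fold change of -0.46. Among all tested genes 22.1% were lower and 25.5% higher, and the count of each list below stands beside these shares. EGR2 and EGR4, factors of the same family, were also lower. EGR2 had a log2 fold change of -1.50 ± 0.34 and EGR4 of -1.54 ± 0.42, although the library ranges of EGR4 overlapped. EGR4 was low in both tables, with a mean of 0.508 CPM in VOS1 and 1.49 CPM in VOS2. FOS, the AP-1 partner of JUN, was at 30.5, 43.7, 26 and 14.8 CPM in VOS1 and at 53.7, 53, 59.2 and 64.4 CPM in VOS2. Its ranges did not overlap, and it was 2.004-fold lower in VOS1 (-1.003 ± 0.25, edgeR adjusted p = 0.00551). JUN itself was at 64.5 to 89.4 CPM in VOS1 and 80.04 to 123 CPM in VOS2 and did not pass the test (edgeR adjusted p = 0.0719). JUND, an AP-1 subunit that most cells express without a stimulus, was the single member that rose, at 140.4 to 198 CPM in VOS1 and 76.5 to 97.1 CPM in VOS2 (0.90 ± 0.12).

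DUSP2, KLF10 and IER2 of the same list also fell. DUSP2, a nuclear phosphatase that inactivates ERK, was at 3.64, 6.40, 5.22 and 8.72 CPM in VOS1 and at 22.4, 21.3, 24.9 and 21.9 CPM in VOS2. The gap between the groups was wide, and DUSP2 was 3.74-fold lower in VOS1 (-1.90 ± 0.22, edgeR adjusted p = 2.74e-05). KLF10, a TGF-beta inducible repressor, fell by 0.87 ± 0.15 in log2, to a mean of 28.6 CPM in VOS1, against 52.1 CPM in VOS2. IER2, which overlaps another gene, had -0.57 ± 0.10. KLF2, KLF4, KLF6, IER5, ZFP36, RHOB and BTG2 did not pass the test, with log2 fold changes from -0.46 to 0.21. All 7 had overlapping ranges. Without VOS1 replicate 4 the list counted 8 lower and 2 higher, scaled over all genes also 8 lower and 2 higher, and on the log2(FPKM + 1) scale 5 lower and 4 higher, with a median of -0.02. On this last scale EGR2 (-0.09), KLF10 (-0.02) and IER2 (-0.02) did not pass, EGR4 was at -0.34, and JUN (0.63), KLF4 (0.57) and BTG2 (0.60) were higher. In counts, JUN passed as lower without VOS2 replicate 2 (-0.41), KLF6 as lower without VOS1 replicate 2 (-0.44) and KLF4 as higher without VOS1 replicate 4 (0.43).

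The ERK feedback list had 6 of 20 members tested, of which 3 were lower and 1 higher in VOS1. SPRY2, a Sprouty inhibitor of receptor tyrosine kinase signalling, fell by 0.48 ± 0.14 in log2, to 16.3 to 26.6 CPM in VOS1, against 29.3 to 34.7 CPM in VOS2, with no overlap of the ranges. SPRY1 fell by 0.53 ± 0.20, with overlapping ranges, and DUSP7, a cytoplasmic ERK phosphatase that overlaps another gene, fell by 0.78 ± 0.14. PHLDA1, which also overlaps another gene, was higher (0.70 ± 0.10), and DUSP6, which overlaps another gene, and SPRED3 did not pass the test. This list counted 2 higher and 2 lower without VOS1 replicate 4, 2 higher and 1 lower when scaled over all genes, and 2 higher and 0 lower on the log2(FPKM + 1) scale. On that last scale SPRY1 and SPRY2 turned to 0.24 and 0.17 without passing the test, so the direction of the Sprouty genes depends on the scale; DUSP7 (-0.22) did not pass on it and SPRED3 (0.62) was higher. In counts SPRY2 lost its call without VOS2 replicate 2 (-0.40) and SPRY1 without any one of 5 libraries, and SPRED3 was higher without VOS1 replicate 4 (0.66).

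**Figure D2:**
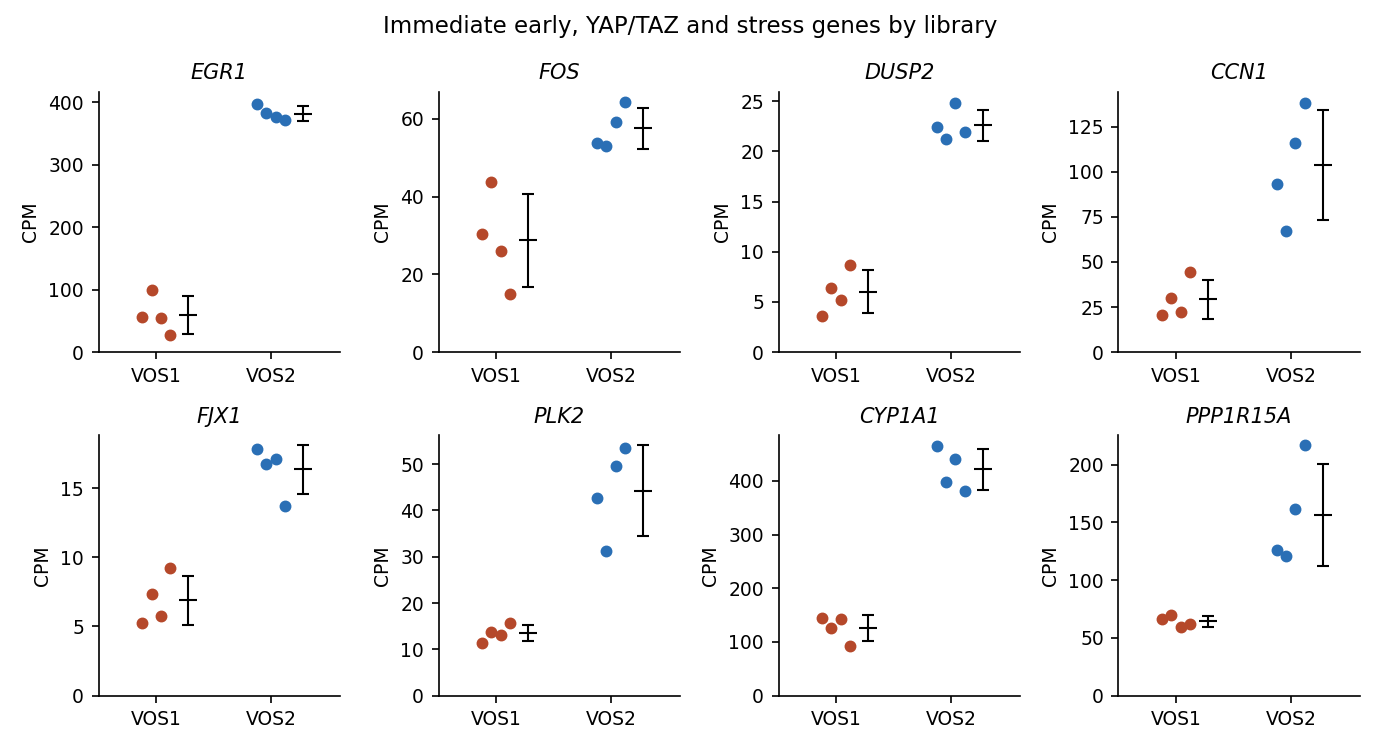
Normalised CPM (vertical, linear from 0) of 8 genes in each of the 4 VOS1 libraries (left in each panel) and the 4 VOS2 libraries (right); points are libraries in replicate order and the black mark is the mean with its SD. All 8 are lower in VOS1 with no overlap between the groups; the VOS2 libraries of PPP1R15A and CCN1 spread more than those of EGR1.

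YAP and TAZ targets gave 4 tested genes of 24 listed. CCN1, a secreted matricellular protein and a classical target of both YAP and SRF, was at 20.9, 29.8, 22.3 and 44.2 CPM in VOS1 and at 93.1, 67.3, 116 and 138 CPM in VOS2. Every VOS1 library was below every VOS2 library, with a fall of 3.53-fold (-1.82 ± 0.26, edgeR adjusted p = 0.000143). FJX1, a Golgi protein related to fly four-jointed, was at 5.26, 7.34, 5.78 and 9.22 CPM in VOS1 and at 17.8, 16.7, 17.1 and 13.7 CPM in VOS2, a fall of 2.36-fold (-1.24 ± 0.18). GADD45B, a stress-inducible regulator of MAP kinases, fell by 0.997 ± 0.35 in log2, with ranges that overlapped (7.57 to 9.80 CPM in VOS1 and 8.81 to 33 CPM in VOS2). Its call was lost on the log2(FPKM + 1) scale (-0.68) and without VOS1 replicate 1 or 3 or VOS2 replicate 3 or 4, with -0.43 without the last. The fourth, AJUBA, a LIM protein of cell junctions, went the other way, at 194 CPM in VOS1 and 17.4 CPM in VOS2 (3.48 ± 0.11). AJUBA overlaps another gene, and its means were 17.4 CPM in NOS1 and 11.4 CPM in IBD. CCN2, ANKRD1 and most other classical targets are not analysed here because the length rule did not keep them. The count for this list was 2 lower and 1 higher when scaled over all genes. Actin and SRF targets gave 2 tested genes, both overlapping another gene: TPM1, an actin filament tropomyosin, was higher (0.78 ± 0.10; 1.421 on the log2(FPKM + 1) scale), and TAGLN did not pass the test (-0.71 ± 0.41, edgeR adjusted p = 0.178) but was lower without VOS1 replicate 4 (-1.32, edgeR adjusted p = 0.00103). KCNK6, a two-pore potassium channel that overlaps another gene, was the single tested gene of the 23 on the mechanosensitive channel list. It was higher (1.17 ± 0.36, edgeR adjusted p = 0.0182), with ranges that overlapped, and whether it senses force was not tested. It did not pass without VOS1 replicate 1 (0.89, edgeR adjusted p = 0.0631) and was at 0.27 on the log2(FPKM + 1) scale.

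Of 32 NF-kB and cytokine genes listed, 9 were tested; 6 were higher in VOS1 and 1 lower, with a median log2 fold change of 0.89, and on the log2(FPKM + 1) scale 8 were higher and 0 lower. CCL2, the chemokine that draws monocytes, was at 24.7, 19.5, 36.9 and 67.8 CPM in VOS1 and at 0.797, 1.45, 3.35 and 0.719 CPM in VOS2. The highest VOS2 library stayed far below the lowest VOS1 library, and VOS1 replicate 4 was the highest of all. CCL2 was 23.2-fold higher in VOS1 (4.54 ± 0.50, edgeR adjusted p = 2.32e-05; 4.09 without VOS1 replicate 4 and 5.30 without VOS2 replicate 3), and its mean was 26.3 CPM in the IBD table and 1.73 CPM in the NOS1 table. It lies at chr17:34255218-34257203 on the plus strand in GENCODE v29 and overlaps no other gene. LTB, the membrane-bound lymphotoxin beta subunit of the TNF family, was at 6.56, 5.70, 7.43 and 16 CPM in VOS1, and it was close to 0 in VOS2, at 0.0532, 0.126, 0.274 and 0.131 CPM. Its log2 fold change of 5.88 ± 0.50 (edgeR adjusted p = 3.16e-06; 5.44 without VOS1 replicate 4) rests on few counts in VOS2. CCL2 was at 3.39 and LTB at 2.58 on the log2(FPKM + 1) scale.

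NFKBIA, which encodes the inhibitor that holds NF-kB in the cytoplasm and is itself induced by it, was at 141, 98.1, 140.1 and 161 CPM in VOS1 and at 44.3, 54.9, 58.3 and 49.8 CPM in VOS2. It was 2.61-fold higher in VOS1 with no overlap of the ranges (1.38 ± 0.15, edgeR adjusted p = 1.79e-05), and its mean was 143 CPM in IBD and 58 CPM in NOS1. The neutrophil chemokines split. CXCL1 was higher (0.89 ± 0.27), at 6.88, 7.81, 8.98 and 8.85 CPM in VOS1 and 2.98, 5.54, 6.58 and 2.42 CPM in VOS2, and CXCL3 was higher with overlapping ranges (0.75 ± 0.26). CXCL5 was higher (3.22 ± 0.64, edgeR adjusted p = 0.00153) and overlaps another gene. Its log2 fold change was 3.98 without VOS2 replicate 2, and its mean was 1.82 CPM in VOS1 and 0.192 CPM in VOS2. CXCL2 was lower (-0.73 ± 0.18), at 6.38, 10.7, 11.1 and 9.95 CPM in VOS1 and 13, 15.9, 18 and 16.7 CPM in VOS2. CXCL1, CXCL2 and CXCL3 are close paralogs, so reads that they share leave their separate levels uncertain. CXCL8, at 3.60 to 8.65 CPM in VOS1 and 2.66 to 6.34 CPM in VOS2, and NFKB2, the gene of the p100 precursor, did not pass the test (edgeR adjusted p = 0.154 and 0.124). The call of CXCL1 was lost without VOS2 replicate 1 (0.77) and that of CXCL3 without VOS1 replicate 2 or 3 or VOS2 replicate 1 or 4, and in the model of 16 libraries CXCL1, CXCL2 and CXCL3 did not pass. On the log2(FPKM + 1) scale CXCL2 (-0.11) did not pass, CXCL5 was at 0.71, and CXCL8 (0.54) and NFKB2 (0.83) were higher. The leukocyte markers given above summed higher in VOS1 than in VOS2, and 5 of 14 reached 1 CPM in VOS1 and 6 in VOS2, TYROBP being at 0 in both tables. The single one tested, CD14, overlaps another gene and was lower in VOS1 (-0.45 ± 0.16), a call that was lost without any one of 7 libraries, when scaled over all genes and on the log2(FPKM + 1) scale.

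Antigen presentation genes were divided, with 3 higher and 2 lower of 7 tested, beside 25.5% higher and 22.1% lower among all tested genes. The class I heavy chains HLA-E (0.46 ± 0.10) and HLA-C (0.73 ± 0.13) were higher; HLA-C overlaps another gene, and both share reads with close paralogs. PSMB8, a subunit of the immunoproteasome, was lower (-1.75 ± 0.27, edgeR adjusted p = 0.000255), as was its activator PSME2 (-0.80 ± 0.10), and both overlap another gene. Of 2 interferon response genes tested, IRF7 was higher (0.78 ± 0.14) and STAT2, which overlaps another gene, was at 0.01 ± 0.11. STAT2 passed as higher on the log2(FPKM + 1) scale (0.79), where HLA-E was at 1.09 and PSMB8 at -0.48.

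**Figure D3:**
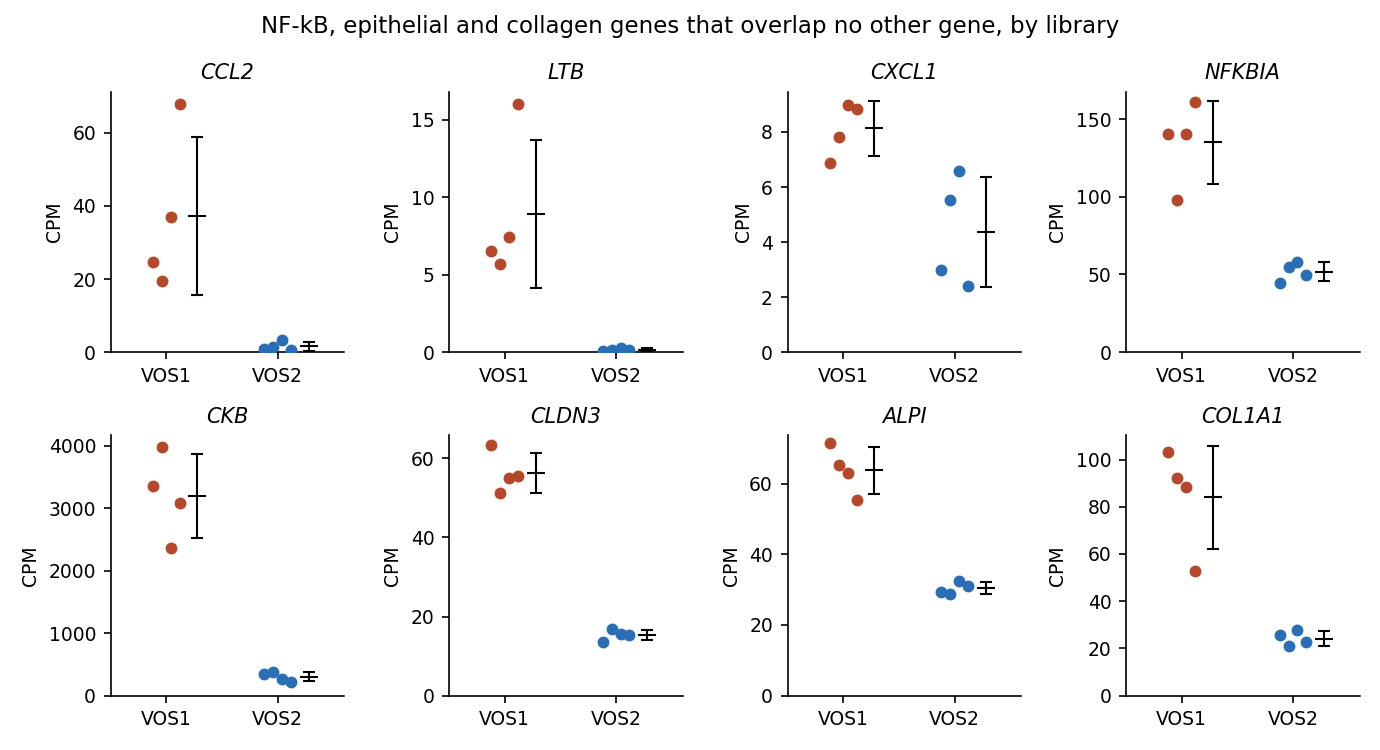
Normalised CPM (vertical, linear from 0) of 8 genes that overlap no other gene in each of the 4 VOS1 libraries (left) and the 4 VOS2 libraries (right), in replicate order; the black mark is the mean with its SD. All 8 are higher in VOS1 without overlap of the groups; VOS1 replicate 4 is the highest for CCL2, LTB and NFKBIA and the lowest for ALPI.

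Of 34 genes of the unfolded protein and integrated stress responses, 11 were tested; 6 were lower and 3 higher, with a median of -0.33. Among all tested genes 22.1% were lower and 25.5% higher. The balance of the list depends on the scale: scaled over all genes 4 were lower and 3 higher, with a median of -0.12, and on the log2(FPKM + 1) scale 4 were lower and 6 higher, with a median of 0.52. In counts, of the 6 that overlap no other gene, 5 were lower and 0 higher. PPP1R15A, which encodes the phosphatase subunit GADD34 that restores translation after stress, was at 66.1, 70.1, 59.5 and 62.1 CPM in VOS1 and at 126, 121, 162 and 217 CPM in VOS2. Each VOS1 library was below each VOS2 library, by 2.43-fold on average (-1.28 ± 0.17, edgeR adjusted p = 7.78e-05). CHAC1, a glutathione-degrading enzyme induced by ATF4, was at 11.2, 13.1, 8.89 and 12.4 CPM in VOS1 and at 32.8, 31.8, 33.7 and 33.7 CPM in VOS2, a fall of 2.89-fold (-1.53 ± 0.13; -0.65 on the log2(FPKM + 1) scale). Smaller falls were found for the transcription factor ATF4 (-0.33 ± 0.08) and the chaperone HSPA5 (-0.45 ± 0.13); neither passed when scaled over all genes, and ATF4 did not on the log2(FPKM + 1) scale (-0.13). XBP1, a transcription factor of the unfolded protein response, was lower in counts (-0.46 ± 0.08) but higher on the log2(FPKM + 1) scale (0.53, limma adjusted p = 0.000138). The 3 higher members, CEBPB, HSP90B1 and DDIT4, and the lower SHMT2 overlap another gene; HSP90B1 (1.32 on the log2(FPKM + 1) scale) lost its call without any one of 5 libraries, and DDIT4 in the model of 16. PMAIP1, which encodes the pro-apoptotic BH3 protein NOXA, was at 3.06, 5.78, 3.34 and 3.49 CPM in VOS1 and at 18, 16.1, 17.3 and 17.6 CPM in VOS2 (-2.13 ± 0.19, edgeR adjusted p = 4.87e-06; -0.86 on the log2(FPKM + 1) scale). PLK2, a polo-like kinase with immediate early behaviour in serum-stimulated cells, was at 11.4, 13.8, 13 and 15.6 CPM in VOS1 and at 42.6, 31.3, 49.7 and 53.5 CPM in VOS2 (-1.71 ± 0.17; -1.05 on the log2(FPKM + 1) scale). In counts both genes had groups far apart relative to the spread within them. Of the 4 listed p53 targets that were tested, AEN (-1.05 ± 0.17) and PLK3 (-0.59 ± 0.13) were lower and both overlap another gene. On the log2(FPKM + 1) scale neither passed, at -0.17 for AEN and 0.13 for PLK3; this list counted 1 higher and 0 lower there, and 1 higher and 1 lower when scaled over all genes.

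Metallothioneins, small proteins that bind zinc and copper, varied between libraries. MT2A was at 3.15, 3.83, 4.18 and 11.2 CPM in VOS1 and at 6.06, 7.17, 32 and 93.3 CPM in VOS2, so that VOS1 replicate 4 exceeded VOS2 replicates 1 and 2 and the groups overlapped. The log2 fold change was -2.60 ± 0.77 (edgeR adjusted p = 0.016), and it was -3.19 without VOS1 replicate 4, while without VOS2 replicate 4 it was -1.36 and no longer passed (adjusted p = 0.0905). MT1E also had overlapping ranges (-2.55 ± 0.70, edgeR adjusted p = 0.0106; -1.70 without VOS2 replicate 4), and MT1F did not pass (-1.18 ± 0.48, edgeR adjusted p = 0.0619). MT2A also lost its call without VOS1 replicate 1 (-2.40), while MT1F was lower without VOS1 replicate 4 (-1.29) or VOS2 replicate 1 (-1.43) or 2 (-1.34) and at -0.40 without VOS2 replicate 4. Their sequences are close to each other and to further metallothionein genes, which leaves their counts uncertain. FTL, the light chain of the iron store ferritin, was lower (-0.88 ± 0.11), at 1999 CPM in VOS1 and 3679 CPM in VOS2. In all, 3 of 5 tested genes of the NRF2 and metallothionein list were lower and 0 were higher, and on the log2(FPKM + 1) scale 0 passed in either direction, with MT2A at -1.79, MT1E at -0.89, MT1F at -0.17 and FTL at -0.02.

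CYP1A1, the xenobiotic-metabolising enzyme induced by the aryl hydrocarbon receptor, was at 144, 126, 142 and 92.9 CPM in VOS1 and at 466, 398, 441 and 382 CPM in VOS2. It was 3.34-fold lower in VOS1 with a wide gap between the groups (-1.74 ± 0.14, edgeR adjusted p = 1.63e-06; -0.89 on the log2(FPKM + 1) scale), and its mean was 452 CPM in NOS1 and 109 CPM in IBD. It was one of 2 tested genes of its list; the other, the carboxylesterase CES2, was higher (0.42 ± 0.09; 1.18 on that scale) and overlaps another gene. Of 3 heat shock genes tested, HSPA8 (-0.83 ± 0.10, overlapping) was lower and HSPB1 was higher (0.54 ± 0.19, ranges overlapping), a call lost without VOS2 replicate 1 or 2 and on the log2(FPKM + 1) scale (0.51). SERPINH1 was lower in counts (-0.26 ± 0.09) and higher on the log2(FPKM + 1) scale (0.52, limma adjusted p = 0.00135); its call in counts was lost without any one of 7 libraries and when scaled over all genes.

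Among the lower genes named for their size were also developmental transcription factors. ZIC2 was at 1.75, 2.89, 3.15 and 1.83 CPM in VOS1 and at 13, 10.6, 9.99 and 10.8 CPM in VOS2 (-2.21 ± 0.21, edgeR adjusted p = 6.95e-06). ZIC5, its neighbour on chromosome 13, was at 5.12, 7.73, 6.49 and 4.83 CPM in VOS1 and at 18.8, 19.6, 20.6 and 22.1 CPM in VOS2 (-1.75 ± 0.16). Both are zinc finger factors known from neural development, and the groups did not overlap for either. Their values were -0.90 for ZIC2 and -0.50 for ZIC5 on the log2(FPKM + 1) scale. LRATD2, which overlaps another gene, was also lower (-1.48 ± 0.16).

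Transcripts of the mitochondrial DNA were lower, as far as they passed the test. All 13 protein-coding genes were tested, 8 were lower in VOS1 and 0 higher, and the median log2 fold change was -0.44; of the 8 that overlap no other gene 6 were lower. The count was 8 lower and 0 higher also without VOS1 replicate 4 and on the log2(FPKM + 1) scale, and 4 lower and 0 higher when scaled over all genes. In counts MT-CYB (-0.37) and MT-ND4L (-0.44) lost their calls without any one of 5 libraries, and MT-ND4 (-0.44) without any one of 4. MT-CO1, the catalytic subunit of cytochrome c oxidase, was at 10929, 10539.6, 14905 and 8846 CPM in VOS1 and at 16963, 21143, 16416 and 16776 CPM in VOS2. Its highest VOS1 library lay below its lowest VOS2 library (-0.66 ± 0.15, edgeR adjusted p = 0.00385). The complex I subunits MT-ND1 (-0.91 ± 0.11) and MT-ND2 (-0.71 ± 0.14) fell by similar amounts, while MT-CO3 (-0.20 ± 0.13) and MT-ATP6 (-0.16 ± 0.14), which overlap other genes, did not pass; without VOS1 replicate 3 both were lower (-0.32 and -0.31). Mitochondrial transcripts can also be read from copies in the nuclear genome. Of 7 nuclear-encoded respiratory chain genes tested, 2 were lower and 0 higher, with a median of -0.03; scaled over all genes 1 was higher and 0 lower, with a median of 0.19, and on the log2(FPKM + 1) scale 4 were higher and 0 lower, with a median of 0.54.

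Genes often taken as stable lay near the median of the kept genes in counts and above 0 on the FPKM scale. Of 23 ribosomal protein genes tested, 18 of which overlap another gene, 20 did not pass, 1 was higher and 2 were lower, with a median of 0.03; without VOS1 replicate 4 the counts were 2 higher and 3 lower, scaled over all genes 8 higher and 0 lower, with a median of 0.24, and on the log2(FPKM + 1) scale 15 higher and 0 lower, with a median of 0.44. Many of these genes have processed pseudogenes and host small nucleolar RNAs, so reads may be shared. Of 8 reference genes, GAPDH, which overlaps another gene, was higher (0.64 ± 0.10) and 7 did not pass, with a median of -0.05; without VOS1 replicate 4, 1 was higher and 3 were lower, scaled over all genes the median was 0.17, and on the log2(FPKM + 1) scale 4 were higher and 0 lower, with a median of 0.33. Among them VCP was at 411 to 527 CPM in VOS1 and 415 to 460.4 CPM in VOS2, and VCP (0.89) and GAPDH (1.33) were higher on that scale. Of 8 replication-dependent histone genes tested, 5 were lower and 1 higher, with a median of -0.53; scaled over all genes 1 was lower and 1 higher. H2BC21 was at 9.58, 8.75, 8.28 and 4.83 CPM in VOS1 and at 11.8, 13.3, 12.8 and 15.7 CPM in VOS2 (-0.78 ± 0.20). The linker histone H1-2 was the higher one (0.67 ± 0.13). Histone mRNAs of this kind mostly lack a poly(A) tail, and these libraries were made from poly(A) RNA.

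All 4 tested genes of the brush border list and all 4 of the lipoprotein list were higher in VOS1, and 3 of each overlap another gene. ALPI, the intestinal alkaline phosphatase of the brush border, overlaps none and was at 71.5, 65.4, 62.9 and 55.4 CPM in VOS1 and at 29.2, 28.8, 32.6 and 31 CPM in VOS2. It was 2.10-fold higher in VOS1 (1.07 ± 0.10, edgeR adjusted p = 7.04e-06), although it shares sequence with the placental form ALPP, which was also higher (1.16 ± 0.29) and overlaps another gene. The mean of ALPI was 29.7 CPM in NOS1 and 30.3 CPM in IBD. VOS1 thus stood apart from the other tables, which were all counted over other features. APOA1 and APOA4, apolipoproteins of chylomicrons that lie in one cluster on chromosome 11, both overlap other genes. APOA4 was at 795, 531, 574 and 258 CPM in VOS1 and at 11.6, 36.5, 16.8 and 8.89 CPM in VOS2 (4.87 ± 0.46). APOA1 was at 1514, 931, 1141 and 1012 CPM in VOS1 and at 69.7, 96.6, 64.6 and 70.9 CPM in VOS2 (3.93 ± 0.18). These were among the largest differences measured, and their means in the other tables, 20.8 and 78.6 CPM in NOS1 and 109.9 and 102 CPM in IBD, were below those of VOS1. The lists share APOA1 and APOA4, and APOE (0.45 ± 0.10, overlapping) and APOA2 (0.28 ± 0.10) completed the second. The call of APOA2 was lost without any one of 6 libraries. APOA4 was at 5.57, APOA1 at 4.67 and APOE at 1.19 on the log2(FPKM + 1) scale.

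Claudins seal the tight junction. CLDN3, which overlaps no other gene, was at 63.3, 51.3, 54.9 and 55.4 CPM in VOS1 and at 13.7, 16.7, 15.6 and 15.3 CPM in VOS2. The groups were tightly clustered and far apart, and CLDN3 was 3.67-fold higher in VOS1 (1.88 ± 0.11, edgeR adjusted p = 1.1e-07). CLDN7, which overlaps a neighbour, had a log2 fold change of 5.20 ± 0.11 (4.58 on the log2(FPKM + 1) scale), and CLDN23 did not pass (0.35 ± 0.27); these are the 3 junction genes tested of 37 listed. CLDN19, outside that list, was at 39.1, 29.2, 34.6 and 22.1 CPM in VOS1 and at 7.65, 7.74, 6.97 and 6.14 CPM in VOS2 (2.13 ± 0.18). Means were 7.68 CPM in NOS1 and 10.3 CPM in IBD for CLDN19, and 14.3 and 21.8 CPM for CLDN3. The means of CLDN7 were 93.7 CPM in VOS1, 2.53 CPM in VOS2, 3.35 CPM in NOS1 and 3.16 CPM in IBD. Of 4 intestinal transcription factors tested, 3 were higher: HES1, a Notch target (0.29 ± 0.08), and, overlapping other genes, FOXA2 (0.43 ± 0.11) and ELF3 (1.73 ± 0.10), an epithelial ETS factor. The goblet cell product ZG16, a lectin of the mucus, was at 85, 88.7, 58.3 and 35.6 CPM in VOS1 and at 2.82, 3.46, 1.87 and 0.915 CPM in VOS2 (4.87 ± 0.37; 3.87 on the log2(FPKM + 1) scale), and the membrane mucin MUC3A was also higher (2.35 ± 0.36); both overlap another gene. ASCL2, the single stem cell gene tested, did not pass (-0.13 ± 0.14). Of 4 keratins, KRT15 was higher (0.61 ± 0.12, overlapping) and KRT17 lower (-0.87 ± 0.30, 0.01 on the log2(FPKM + 0.1) scale), and KRT18, which overlaps another gene, did not pass; without VOS1 replicate 4, 1 was higher and 3 were lower, with KRT18 at -0.90, and scaled over all genes or on the log2(FPKM + 1) scale 1 was higher and 0 were lower. The call of KRT17 was lost without any one of 6 libraries.

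CKB is a metabolic gene outside the lists. It encodes the brain-type creatine kinase, which buffers ATP where it is used, and overlaps no other gene. CKB was at 3346, 3972, 2366 and 3086 CPM in VOS1 and at 344, 380.5, 270.1 and 216 CPM in VOS2. It was 10.5-fold higher in VOS1 (3.40 ± 0.20, edgeR adjusted p = 1.55e-07), and its mean was 312 CPM in NOS1 and 1053 CPM in IBD. All 6 tested genes of the hypoxia and glycolysis list were higher, with a median of 0.88. ADM, the vasodilator peptide adrenomedullin, is the one of them that overlaps no other gene (0.92 ± 0.27), and its ranges overlapped. VEGFA (0.84 ± 0.13), BHLHE40 (1.82 ± 0.21), TPI1 (1.07 ± 0.10) and DDIT4 (0.64 ± 0.13) overlap another gene, as does GAPDH given above. Further overlapping genes that were higher were CPT2 (1.16 ± 0.14) and ACADVL (0.71 ± 0.10; 1.418 on the log2(FPKM + 1) scale) of fatty acid oxidation and TM7SF2 (1.03 ± 0.10) of sterol synthesis. MCM7, a replication licensing factor that overlaps another gene and is the single cell cycle gene tested, was lower in counts (-0.51 ± 0.14) and higher on the log2(FPKM + 1) scale (0.43, limma adjusted p = 0.0364), and its call in counts was lost without VOS2 replicate 1, 2 or 3.

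Beyond the lists, the largest rises included genes near 1 CPM in VOS2. SRSF6, a splicing factor that overlaps no other gene, was at 289, 346, 352 and 198 CPM in VOS1 and at 1.01, 1.26, 1.43 and 1.18 CPM in VOS2 (7.92 ± 0.24). Its mean was 1.11 CPM in NOS1 and 1.01 CPM in IBD. VOS1 thus stood apart from the 3 other tables, which were all counted over other features. The implied length of SRSF6 in VOS2, 8154 bases, exceeded its GENCODE v29 span (chr20:43457928-43464247). The lack of an overlap in that annotation therefore need not hold for the features counted. RGL2 (5.36 ± 0.14), FZD4 (4.14 ± 0.24) and IRGQ (3.97 ± 0.21) each overlap another gene. Their means were 94.7, 34.9 and 28.3 CPM in VOS1, 2.98, 1.49 and 1.96 CPM in IBD and 2.28, 1.96 and 1.83 CPM in VOS2. For CCL2, ZG16 and APOA4, by contrast, the IBD table was far from VOS2, with IBD means of 26.3, 20.8 and 109.9 CPM and VOS2 means of 1.58, 2.26 and 18.5 CPM. On the log2(FPKM + 1) scale SRSF6 was at 5.71, RGL2 at 4.18, FZD4 at 2.23 and IRGQ at 1.75. How far the counting set these differences was not tested.

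**Figure D4:**
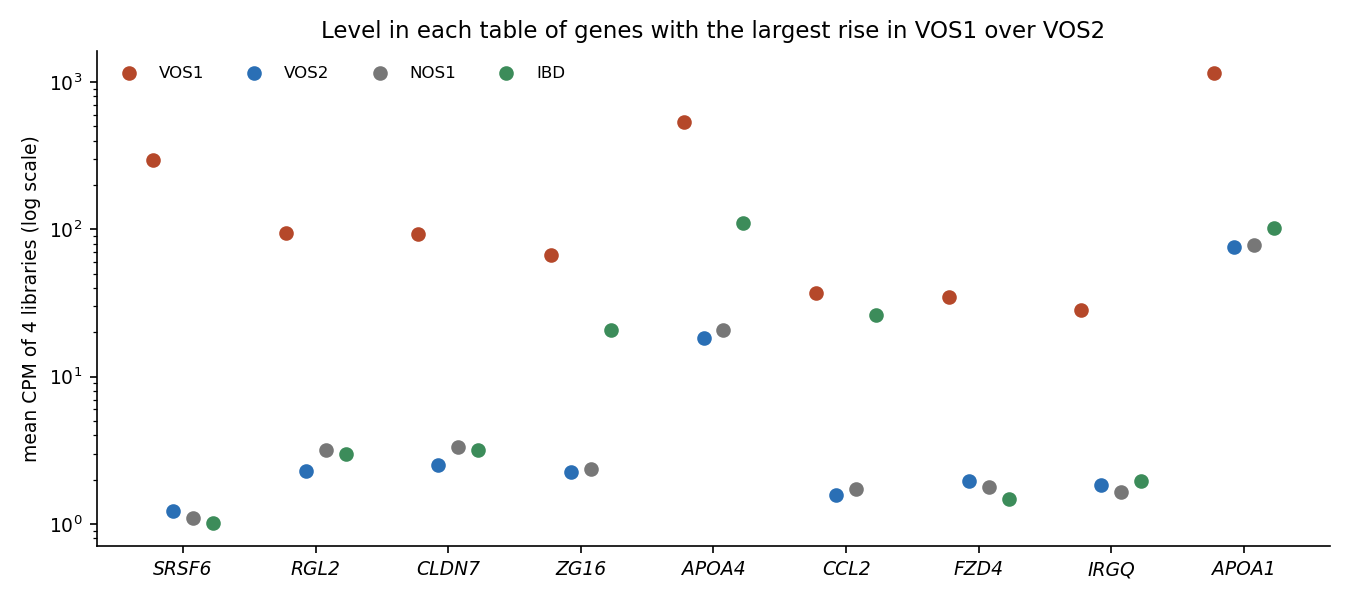
Mean CPM of 4 libraries (vertical, log scale) in the tables VOS1, VOS2, NOS1 and IBD for 9 of the 10 protein-coding genes with the largest rise in VOS1 over VOS2 under the naming rule, ordered by its size. For SRSF6 the tables VOS2, NOS1 and IBD coincide at about the same low level, while for ZG16, APOA4 and CCL2 the IBD table lies between VOS1 and VOS2 or near VOS1.

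Other genes without an overlap rose by over 2 on the log2 scale. C11orf86 was at 59.5 CPM in VOS1 and 4.95 CPM in VOS2 (3.58 ± 0.22). AOC3, an amine oxidase known as a vascular adhesion protein, was at 21.3, 9.92, 19.4 and 8.15 CPM in VOS1 and at 0.904, 1.64, 0.494 and 2.22 CPM in VOS2 (3.51 ± 0.43; 1.78 on the log2(FPKM + 1) scale). RNF223 (2.20 ± 0.27) and FNDC4 (2.08 ± 0.15), a secreted fibronectin domain protein, were also higher, with no overlap of the library ranges. Means in NOS1 were 13.6 CPM for C11orf86, 1.32 for AOC3, 1.86 for RNF223 and 2.34 for FNDC4. In IBD they were 16.2, 2.25, 3.93 and 2.31 CPM, all far below those of VOS1, which was counted over other features. These genes were added to the naming rule after the data were seen, as the largest changes among genes that overlap no other gene.

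Mesenchymal genes moved in opposite directions. VIM, the intermediate filament of mesenchymal cells, was at 0.0899, 0.195, 0 and 0.2 CPM in VOS1 and at 14, 5.16, 10.5 and 9.67 CPM in VOS2, with means of 48.4 CPM in NOS1 and 11.6 CPM in IBD. VIM overlaps another gene, and its log2 fold change was -6.18 ± 0.46 (edgeR adjusted p = 1.11e-06; -0.98 on the log2(FPKM + 1) scale). COL1A1, the collagen I chain, was at 103, 92.2, 88.3 and 52.7 CPM in VOS1 and at 25.5, 20.9, 27.7 and 22.6 CPM in VOS2 (1.80 ± 0.19). Its mean was 25.5 CPM in NOS1 and 28.7 CPM in IBD. VOS1 thus stood apart from the other tables, which were all counted over other features. The fibroblast markers given above summed higher in VOS1 than in VOS2, with COL1A1 among them, and their part in these differences was not tested.

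**Figure D5:**
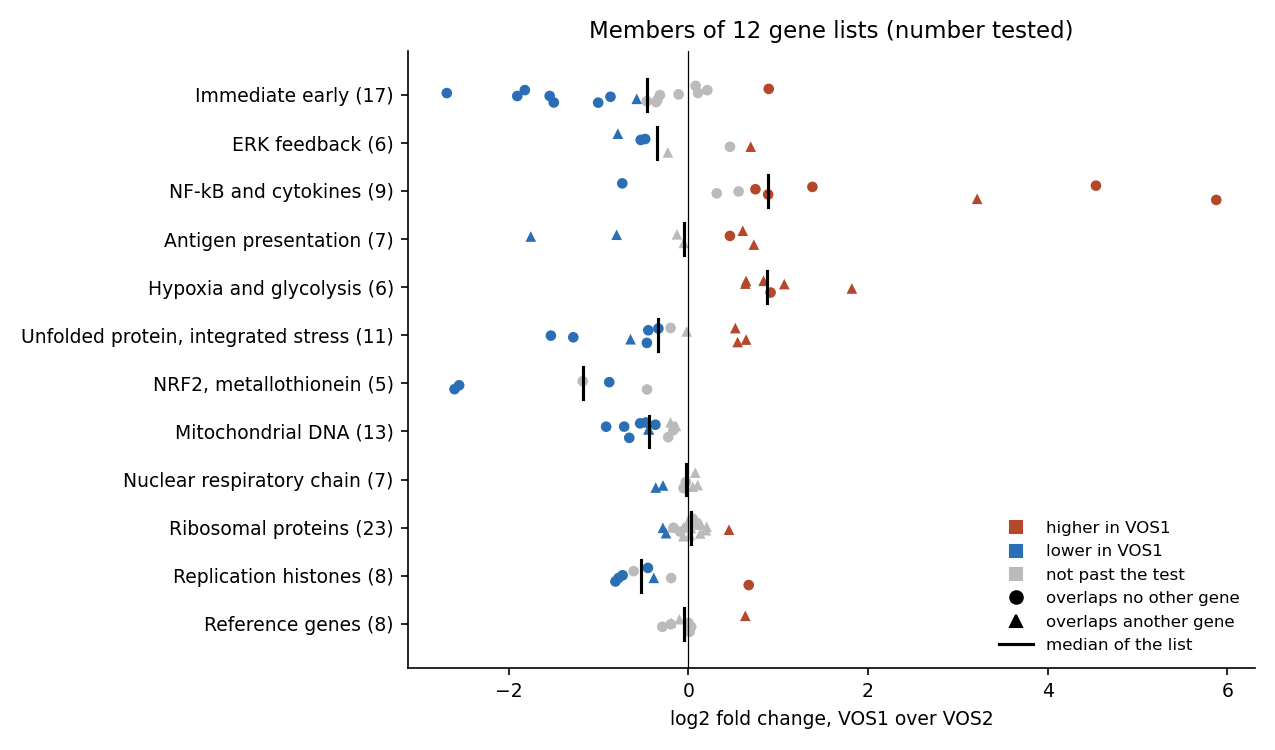
Log2 fold change of VOS1 over VOS2 (horizontal) for the tested members of 12 gene lists (rows, number tested in parentheses); each symbol is a gene, coloured by the direction of a call, with circles for genes that overlap no other gene and triangles for genes that overlap one. Medians (black bars) range from -1.18 for NRF2 and metallothionein genes to 0.89 for NF-kB and cytokine genes, and ribosomal protein and reference genes lie near 0 in counts (0.44 and 0.33 on the log2(FPKM + 1) scale).

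The lists cover their pathways in part. Of the 44 brush border genes 4 were tested, of the 32 NF-kB and cytokine genes 9, of the 31 immediate early genes 17 and of the 24 YAP and TAZ targets 4, while none of the integrins was kept. A gene that the length rule left out, or that lacked 5 counts in every library of one table, is not analysed here, and no statement about a pathway as a whole follows from its compact members.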

How the data were processed

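RNA was captured on polyT and fragmented, per the labels' protocols, which name no strand-marking step. The submitters' processing notes list STAR 2.7.11a, featureCounts 2.0.6, fastp 0.23.4 and the build hg38, without settings. The authors deposited raw counts per gene and FPKM values per gene, and 0 value columns were left unused. The deposited FPKM gave the implied lengths, as count × 1e9 / (FPKM × library total), from the median over libraries with 5 or more counts.

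Counts of kept genes were tested with edgeR 4.0.16 in R 4.3.3 (quasi-likelihood, TMM scaling over kept genes, library sizes from full tables, the default filter by table, Benjamini-Hochberg over 2207 genes, threshold 0.05). CPM are scaled by these factors; NOS1 and IBD means are unscaled. Alternatives used DESeq2 1.42.0, limma 3.58.1 and other scalings, filters and libraries. The procedure was tested on simulated data. Overlap was read from GENCODE v29 and RefSeq. The VOS2 lengths of SRSF6 (8154 bases) and CCN1 (3829 bases) exceeded their GENCODE v29 spans, so the counting may have used another annotation.

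The members, the 38 lists and the tests were chosen with earlier results of these data known. Named genes are EGR1, the 10 higher and 10 lower protein-coding genes with the largest fold change among calls with ranges that do not overlap and means of at least 1 CPM in both tables and 10 CPM in one, and up to 4 called members of each list with at least a 2-fold change. No gene met a further rule for genes under 0.1 CPM in one table. The largest changes among genes without an overlap were added after the data were seen, and other list members are given to account for the counts. Some genes that the rule or the lists name are not reported here. Replicate numbers were not treated as pairs. Intervals and errors cover the spread between these libraries. The SE after ± is the size of the log2 fold change divided by the square root of the F statistic of edgeR's test. It is thus derived from that test and was not estimated on its own.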

Additional observations from a re-analysis of the deposited data

Results flagged for a closer look

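In 6 of 96 groups of 4 libraries examined for the named genes, one library lay far from the other 3; chance gives about 1 in 20. Of these 6, 2 were in VOS1 replicate 4: LTB, at 16.0 CPM there and at 5.70 to 7.43 CPM in the other VOS1 libraries, and MT2A, at 11.2 CPM there and at 3.15 to 4.18 CPM in the others. In VOS1 replicate 2 PMAIP1 was at 5.78 CPM, with 3.06 to 3.49 CPM in the others, and in VOS1 replicate 1 FNDC4 was at 12.7 CPM, with 10.2 to 10.3 CPM in the others. KCNK6 was at 1.22 CPM in VOS2 replicate 1, with 0.566 to 0.658 CPM in the others, and CPT2 was at 7.74 CPM in VOS2 replicate 3, with 10.2 to 10.6 CPM in the others. In each case except KCNK6 and MT2A the VOS1 and VOS2 ranges did not overlap.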

How the results depend on the processing

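Against 1051 calls (563 higher in VOS1, 488 lower), limma on log2(FPKM + 1) called 1076 higher and 282 lower, and on log2(FPKM + 0.1) 1083 and 283, with 79.2% and 79.3% of calls higher and median log2 fold changes of 0.24 and 0.41. Scaling and adjusting over all genes left 310 lower. A test against a 2-fold minimum called 191 genes (145 higher, 46 lower). Length ratios of 0.9 to 1.1 left 269 (136 and 133), protein-coding genes without an overlap in GENCODE v29 388 (204 and 184), genes without an overlap in either annotation 413 (225 and 188) and the same without VOS1 replicate 4 505 (257 and 248); fewer genes were tested in these 4. The last pair of alternatives was added after seeing the data. RLE factors, library size alone, both filters, DESeq2 and a model of 16 libraries stayed within 1.5 times of each count. With the replicate number as a block, the replicate block fit called 994 genes (527 and 467); deviations of same-numbered libraries correlated at -0.14 to 0.11, and 1 of 4 correlated best with its own number, so the numbers were not taken to pair the libraries. Leaving out each library in turn gave 881 to 1232 calls (476 to 657 higher, 377 to 575 lower). Of 1021 alternative values of the 49 named genes, 1000 kept direction and side of the threshold, 0 reversed and 21 kept direction only: 12 under the 2-fold minimum, MT2A, MT1E and AEN under FPKM, MT2A (adjusted p = 0.0569) and KCNK6 (0.89, adjusted p = 0.0631) without VOS1 replicate 1, and MT2A without VOS2 replicate 4. On log2(FPKM + 0.1), AJUBA (4.36), BHLHE40 (2.48), CLDN19 (2.98), COL1A1 (2.65), CPT2 (1.79), FNDC4 (2.71), FOXA2 (1.14), NAGS (2.13) and RNF223 (2.94) also moved by over 1.5 times in fold. The causes were not tested. Genes with few counts in one table, such as LTB, CXCL5 and VIM, have wide errors.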

Other observations

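The genes in this section were chosen after their values were seen, and families were taken whole by symbol. Of 14 SR splicing factors of the SRSF and TRA2 families, 6 were tested and 5 were lower in VOS1. None of the 6 overlaps another gene in either annotation, although for SRSF6 this need not hold for the features counted. Among all tested genes 22.1% were lower and 25.5% higher, and the counts of families here stand beside these shares. TRA2B, a regulator of alternative exons, was at 188, 249.9, 225 and 205 CPM in VOS1 and at 423, 453, 394 and 433 CPM in VOS2 (-0.97 ± 0.10, edgeR adjusted p = 1.41e-05). SRSF7 (-0.96 ± 0.11), SRSF8 (-0.74 ± 0.08), SRSF10 (-0.69 ± 0.14) and SRSF3 (-0.54 ± 0.09) were lower by similar amounts, while SRSF6 was the one that was higher. On the log2(FPKM + 1) scale SRSF8 still passed (-0.69), and TRA2B (-0.12), SRSF10 (-0.20), SRSF7 (0.01) and SRSF3 (0.12) did not. Of the 3 tested genes of UTP and NOP nucleolar proteins, which assemble ribosomes, all 3 were lower: UTP3 (-1.03 ± 0.14) and, overlapping other genes, NOP56 (-1.04 ± 0.12) and NOP9 (-0.70 ± 0.12). On the log2(FPKM + 1) scale UTP3 (-0.98) and NOP56 (-0.81) still passed and NOP9 (-0.06) did not. DNTTIP2, also nucleolar, was at 41.3 CPM in VOS1 and 98.1 CPM in VOS2 (-1.25 ± 0.14, and -0.34 on that scale). CYCS, the electron carrier cytochrome c, was at 129, 184, 172 and 143 CPM in VOS1 and at 319, 357, 274 and 332 CPM in VOS2 (-1.03 ± 0.13).

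Of 22 mitochondrial tRNA genes, 20 were tested; 16 were lower in VOS1 and 1, MT-TP, was higher (0.74 ± 0.14), with a median log2 fold change of -1.19. These are short RNAs within longer transcripts, and the assignment of reads that span gene borders was not checked. Of 14 tested mitochondrial ribosomal proteins, 3 were higher and 3 lower; of the 6 that overlap no other gene 0 were higher and 1 was lower. Of 34 tested ZNF genes, 12 were higher and 8 lower; of the 13 that overlap no other gene 3 were higher and 2 lower. Over all tested genes 25.5% were higher and 22.1% lower. Frizzled receptors, the receptors for Wnt ligands, split into 4 higher and 2 lower of 6 tested: FZD5 (0.53 ± 0.15) was higher and FZD1 (-0.88 ± 0.14) lower, both without an overlap. FZD8 (-0.82, overlapping) lost its call without any one of 6 libraries, with DESeq2 and when scaled over all genes. FZD7 (0.28) lost its call without any one of 3 libraries.

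Among other genes without an overlap that were higher, PCK1, the enzyme that commits carbon to gluconeogenesis, was at 46.7, 59, 61.1 and 25.3 CPM in VOS1 and at 12.8, 22, 13.5 and 10.1 CPM in VOS2 (1.72 ± 0.28). LEAP2, an antimicrobial peptide and ghrelin receptor antagonist of liver and small intestine, was at 10.1, 9.14, 8.65 and 4.26 CPM in VOS1 and at 1.22, 2.33, 1.76 and 1.11 CPM in VOS2 (2.32 ± 0.31). AQP10, a water and glycerol channel of the small intestine, was at 48.9, 46.5, 29.3 and 16 CPM in VOS1 and at 0.478, 1.32, 0.0549 and 0 CPM in VOS2 (6.25 ± 0.61; 3.79 on the log2(FPKM + 1) scale and 7.51 without VOS2 replicate 2), with means of 0.481 CPM in NOS1 and 19.3 CPM in IBD. NAGS, which makes the activator of the urea cycle, was also higher (1.51 ± 0.17).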
